A study of Mus musculus with 8 samples.

Results

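Endothelial cells, which line blood and lymphatic vessels, were followed through 10 genes of the count table: Pecam1, Cdh5, Kdr, Flt1, Tek, Plvap, Emcn, Apln, Flt4 and Prox1. The genes were chosen by name for their roles in endothelial identity and in receptor signalling during angiogenesis, and they are 10 of the 51789 genes in the table. All 10 passed the filter on low counts, and each is read here in all 8 libraries and all 3 treatments.

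The libraries came from whole mammary glands of female C57BL/6 mice, collected 6 weeks after an injection into the abdominal gland. The control group (sEVCTRL, 3 glands) received material prepared in the same way from medium that no cells had conditioned. The normoxia exosomes group (sEVNORM, 3 glands) and the hypoxia exosomes group (sEVHYP, 2 glands) received small extracellular vesicles that AT3 cells shed in normoxia or in hypoxia, AT3 being a mouse mammary adenocarcinoma line that metastasizes. All vesicles thus came from 1 tumor cell line, no gland was left without an injection, and the age of the mice is not given in the sources used here. The labels give replicate numbers and no animal identifiers, and the study states 2 to 3 animals per group for this experiment. P values measure the spread between these libraries.

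New vessels grow from existing ones when VEGF ligands bind receptor tyrosine kinases on endothelial cells. Angiopoietins acting on Tek and apelin released by sprouting cells then shape and stabilize the new branch. Lymphatic endothelium uses the same family through Flt4, under the transcription factor Prox1. The mammary gland holds a dense capillary bed within its fat, so endothelial transcripts are read here against a background of adipocytes, epithelium, stroma and immune cells.

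Total counts per library ranged from 18194996 to 24622569. Levels are in CPM, that is counts relative to the library total after correction for library composition (TMM), and comparisons used the edgeR quasi-likelihood F-test on all 17858 genes that passed the filter. The glands differed widely in their content of other tissues. The summed level of 18 skeletal muscle markers was 797 to 11366 CPM in sEVCTRL, 40.8 to 3786 CPM in sEVNORM, and 5781 and 15738 CPM in sEVHYP. Luminal epithelial markers, which define the labelled tissue, summed to 1031 to 2245 CPM over the 8 libraries, and of the 13 only Wap, a milk protein gene, was at 0 in every library. sEVNORM replicate 3 held 73.8 CPM of keratinocyte and skin markers, against 8.75 to 13.1 CPM elsewhere. The part of this tissue content in the results was not tested except by a fit with the muscle score as a covariate.

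Per kilobase of exon, the 10 genes fell into an order with Pecam1 at the top. Median RPKM (CPM per kilobase of the gene's exons) over the 8 libraries was 40.8 for Pecam1 and 29.4 for Cdh5, and Pecam1 was above Cdh5 within 8 of 8 libraries although their ranges overlapped. Plvap (13.4), Kdr (10.9), Tek (10.7) and Emcn (10.6) formed a second tier of RPKM levels that overlapped one another. Flt1 followed at 5.17 RPKM, without overlap with Emcn above it or Prox1 below it. Prox1 (1.89), Apln (1.39) and Flt4 (1.04) had the lowest RPKM levels, with ranges that overlapped from each to the next. The genes with lymphatic roles were thus at the low end.

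None of the 10 genes differed between sEVHYP, sEVNORM and sEVCTRL glands at an unadjusted P under 0.05. In the comparison of sEVHYP with sEVNORM, whose vesicles differed by design in hypoxic origin, 0 of 10 genes passed, where 3.95% of all tested genes did. In sEVHYP against sEVCTRL 0 of 10 passed (2.45% of all genes), and in sEVNORM against sEVCTRL 0 of 10 passed (1.62% of all genes). After Benjamini-Hochberg adjustment edgeR called none of the 17858 genes in any comparison, with 706, 438 and 290 genes at an unadjusted P under 0.05. DESeq2 on all 8 libraries called 16, 4 and 2 genes after adjustment, and none of the 10 was among them.

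**Figure D1:**
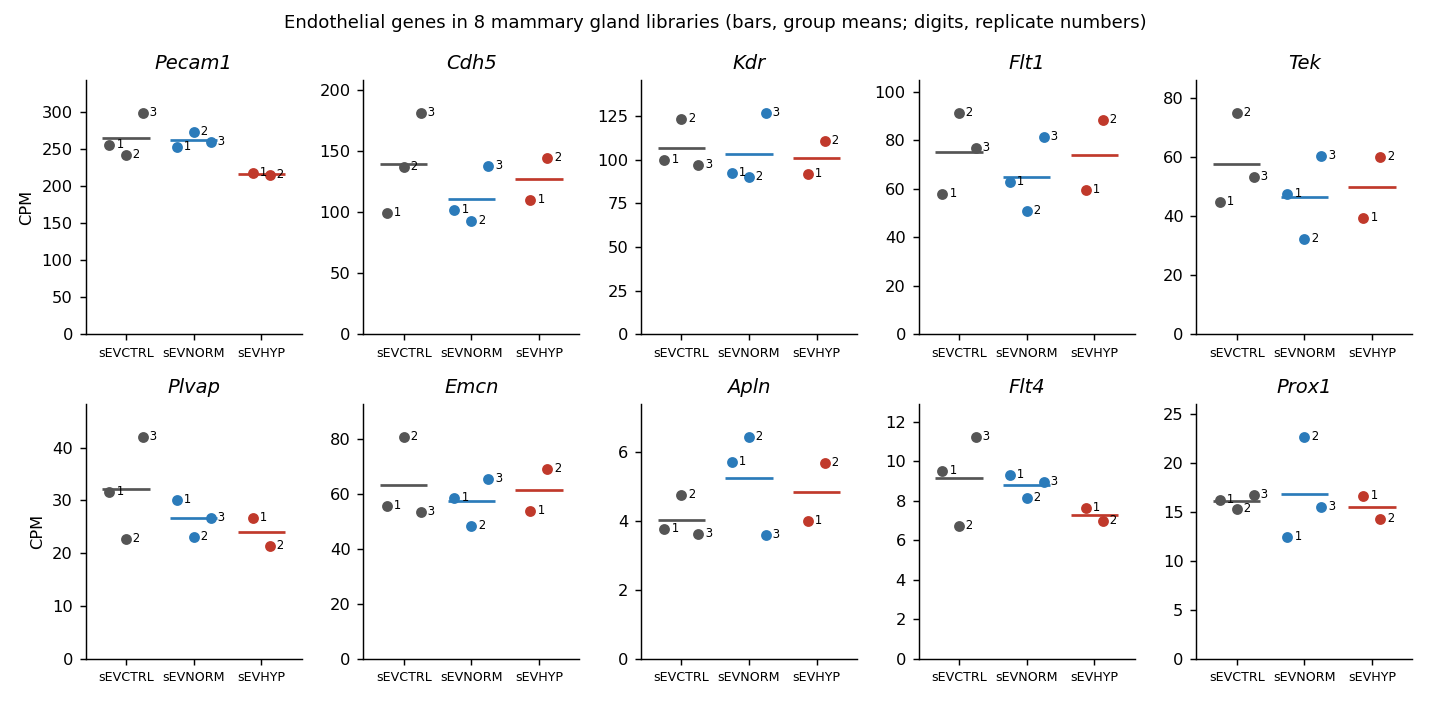
CPM (vertical axes, from 0) of the 10 genes in each of the 8 libraries, by treatment. Points are glands with their replicate numbers, and bars are group means. Both sEVHYP points of Pecam1 lie below the other 6, whereas Kdr, Flt1, Tek and Emcn overlap across all 3 treatments.

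Pecam1 (ENSMUSG00000020717, chromosome 11, 106654217 to 106750628 on GRCm38) encodes CD31, an adhesion molecule of endothelial junctions that platelets and leukocytes also carry. Its level was 255.7, 242.3 and 298.7 CPM in sEVCTRL, 253.0, 273.0 and 260.1 CPM in sEVNORM, and 218.3 and 215.4 CPM in sEVHYP. Both sEVHYP glands were below all 6 other glands, with group means of 217 ± 2.08 (SD, 2 glands), 262 ± 10.1 (3 glands) and 266 ± 29.5 CPM (3 glands) for sEVHYP, sEVNORM and sEVCTRL. The log2 difference of sEVHYP from sEVNORM was -0.27 (SE 0.16, unadjusted P of 0.118, edgeR adjusted P = 1.00), with a 95% interval of -0.63 to 0.084. That from sEVCTRL was -0.29 (SE 0.16, unadjusted P of 0.0976, edgeR adjusted P = 1.00), with an interval of -0.65 to 0.065. The upper bounds correspond to Pecam1 levels 6.0% and 4.62% higher in sEVHYP, and the lower bounds to percent changes of -35.4 and -36.2. Between sEVNORM and sEVCTRL the difference was -0.019 (SE 0.14).

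Pecam1 and Flt4 were the 2 of 10 genes whose sEVHYP and sEVNORM values did not overlap, as was the case for 22.8% of all tested genes. Against sEVCTRL only Pecam1 of the 10 did not overlap, with 12.8% of all genes, and between sEVNORM and sEVCTRL none of the 10 did, with 4.86% of all genes. These shares lie near the background of each comparison.

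Cdh5 (ENSMUSG00000031871, chromosome 8, 104101625 to 104144511) encodes VE-cadherin, the cadherin of endothelial adherens junctions. Its level was 99.6, 137 and 181 CPM in sEVCTRL, 101, 92.5 and 138 CPM in sEVNORM, and 110 and 144 CPM in sEVHYP. The groups overlapped in all comparisons, and replicates within sEVCTRL differed 1.82-fold. The log2 difference was 0.20 (SE 0.27) for sEVHYP against sEVNORM, -0.13 (SE 0.27) for sEVHYP against sEVCTRL, and -0.33 (SE 0.24, unadjusted P of 0.205, edgeR adjusted P = 1.00) for sEVNORM against sEVCTRL. Without sEVCTRL replicate 1, the lowest control, the last difference was -0.55 (unadjusted edgeR P of 0.0473), and 3.2% of all genes were called in that comparison.

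Plvap (ENSMUSG00000034845, chromosome 8, 71497765 to 71511752) forms the diaphragms of fenestrae and caveolae in permeable capillaries. Its level was 31.7, 22.7 and 42.0 CPM in sEVCTRL, 30.1, 23.0 and 26.7 CPM in sEVNORM, and 26.6 and 21.4 CPM in sEVHYP. sEVCTRL replicate 2 sat inside the range of the treated glands while the other sEVCTRL glands lay above it. The log2 difference of sEVHYP from sEVCTRL was -0.42 (SE 0.26, unadjusted P of 0.143, edgeR adjusted P = 1.00), the lowest among the 10 genes, with an interval of -1.01 to 0.17. Without sEVCTRL replicate 2 it was -0.62 (unadjusted edgeR P of 0.0217), and sEVNORM minus sEVCTRL moved from -0.27 to -0.47 (unadjusted edgeR P of 0.0435). Without that library 8.32% of all genes were called in sEVHYP against sEVCTRL and 5.75% in sEVNORM against sEVCTRL. Adjusted P for Plvap was at least 0.569 in every setting of both comparisons.

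Emcn (ENSMUSG00000054690, chromosome 3, 137341067 to 137432185) encodes endomucin, a sialomucin of capillary and venous endothelium. Its level was 55.6, 80.8 and 53.6 CPM in sEVCTRL, 58.6, 48.6 and 65.6 CPM in sEVNORM, and 54.0 and 69.1 CPM in sEVHYP. The groups overlapped throughout, with log2 differences of 0.096 (SE 0.23), -0.042 (SE 0.23) and -0.14 (SE 0.20) for sEVHYP against sEVNORM, sEVHYP against sEVCTRL and sEVNORM against sEVCTRL.

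Kdr and Flt1 are the receptors for VEGF-A, Kdr (VEGFR2) carrying most of the growth signal and Flt1 (VEGFR1) binding the ligand tightly and signalling less. Kdr (ENSMUSG00000062960, chromosome 5, 75932827 to 75978458) was at 100, 123 and 96.8 CPM in sEVCTRL, 92.2, 90.1 and 127 CPM in sEVNORM, and 91.7 and 110 CPM in sEVHYP. Flt1 (ENSMUSG00000029648, chromosome 5, 147561604 to 147726011) was at 57.7, 91.3 and 76.7 CPM in sEVCTRL, 62.9, 50.8 and 81.3 CPM in sEVNORM, and 59.4 and 88.2 CPM in sEVHYP. Each treatment contained both a low and a high gland for these receptors, and the 3 groups covered nearly the same range. The log2 difference of Kdr was -0.027 (SE 0.20) for sEVHYP against sEVNORM, with an interval of -0.48 to 0.43, and -0.077 (SE 0.20) for sEVHYP against sEVCTRL. The log2 difference of Flt1 was 0.18 (SE 0.27) and -0.028 (SE 0.27) in the same comparisons, the first with an interval of -0.42 to 0.79. Changes of 1.73-fold or more in Flt1 or of 1.35-fold or more in Kdr, upward in sEVHYP from sEVNORM, fall outside these intervals.

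Tek (ENSMUSG00000006386, chromosome 4, 94739289 to 94874976) encodes Tie2, the angiopoietin receptor. Its level was 44.8, 74.8 and 53.2 CPM in sEVCTRL, 47.3, 32.1 and 60.2 CPM in sEVNORM, and 39.3 and 60.1 CPM in sEVHYP. Tek had the widest spread of the 10 genes, 2.33-fold from the lowest to the highest library, and its groups overlapped. Its log2 differences were 0.093 (SE 0.31), -0.21 (SE 0.31) and -0.31 (SE 0.28) for sEVHYP against sEVNORM, sEVHYP against sEVCTRL and sEVNORM against sEVCTRL.

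Apln (ENSMUSG00000037010, chromosome X, 48025146 to 48034853) encodes apelin, the peptide that sprouting tip cells release. Its level was 3.76, 4.74 and 3.61 CPM in sEVCTRL, 5.71, 6.43 and 3.60 CPM in sEVNORM, and 3.99 and 5.67 CPM in sEVHYP. In both vesicle groups at least 1 gland was above all controls and at least 1 was not. The log2 difference from sEVCTRL was 0.38 (SE 0.29) for sEVNORM and 0.26 (SE 0.33) for sEVHYP. Apln had as few as 66 counts in a library, a counting error of 12.3% of its value, and its intervals were the widest of the 10, from -0.86 to 0.62 for sEVHYP against sEVNORM.

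Flt4 (ENSMUSG00000020357, chromosome 11, 49609263 to 49652739) is VEGFR3, the receptor for VEGF-C and VEGF-D on lymphatic endothelium. Its level was 9.50, 6.75 and 11.2 CPM in sEVCTRL, 9.33, 8.16 and 8.94 CPM in sEVNORM, and 7.65 and 6.96 CPM in sEVHYP. Both sEVHYP glands were below the sEVNORM glands, but sEVCTRL replicate 2 was lower than either. The log2 difference of sEVHYP was -0.27 (SE 0.25, unadjusted P of 0.314, edgeR adjusted P = 1.00) from sEVNORM and -0.32 (SE 0.25, unadjusted P of 0.234, edgeR adjusted P = 1.00) from sEVCTRL.

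Prox1 (ENSMUSG00000010175, chromosome 1, 190118035 to 190170714) specifies lymphatic identity and is also expressed outside vessels. Its level was 16.2, 15.3 and 16.7 CPM in sEVCTRL, 12.5, 22.7 and 15.6 CPM in sEVNORM, and 16.6 and 14.3 CPM in sEVHYP. sEVNORM replicates 1 and 2 were the lowest and the highest of all 8 glands. Log2 differences were -0.12 (SE 0.25), -0.054 (SE 0.25) and 0.070 (SE 0.22) in the 3 comparisons. Prox1 shares 133 exonic bases with Prox1os on the opposite strand, and the strand setting of the counting is not given in the sources used here.

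**Figure D2:**
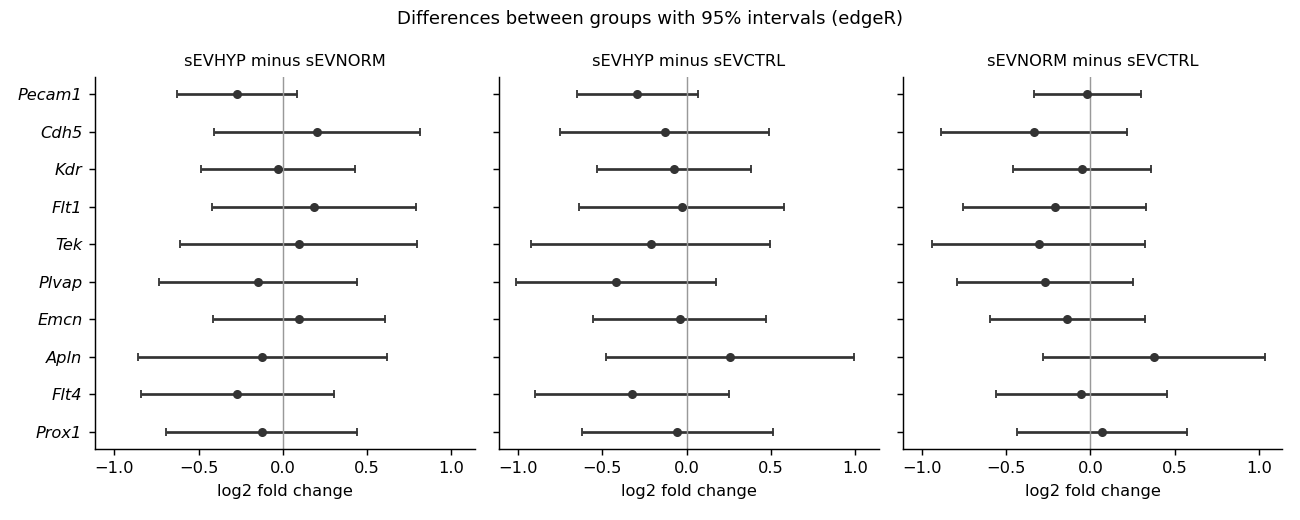
Log2 fold changes of the 10 genes with 95% intervals from edgeR (horizontal axes) in the 3 comparisons. All 30 intervals include 0, and Pecam1 has the narrowest.

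Over the 10 genes the median log2 difference was -0.074 for sEVHYP against sEVNORM, where the median over all tested genes was -0.020. The other medians were -0.10 for sEVHYP against sEVCTRL and -0.096 for sEVNORM against sEVCTRL, where all tested genes had -0.015 and -0.00080. The signs were 4 positive and 6 negative for sEVHYP against sEVNORM, 1 and 9 for sEVHYP against sEVCTRL, and 2 and 8 for sEVNORM against sEVCTRL. Both comparisons with sEVCTRL share the same 3 control glands. In whole tissue, fewer endothelial cells and less RNA per endothelial cell cannot be told apart.

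For Kdr, Flt1, Tek and Emcn the larger contrasts were between glands of the same treatment. In these genes sEVCTRL replicate 2, sEVNORM replicate 3 and sEVHYP replicate 2 were the highest gland of their group, and sEVNORM replicate 2 and sEVHYP replicate 1 the lowest of theirs. Within sEVNORM, Tek differed 1.87-fold between replicates 3 and 2. Pecam1, Plvap and Flt4 ran differently, with sEVCTRL replicate 3 highest and sEVCTRL replicate 2 lowest of the controls, and sEVHYP replicate 1 above replicate 2. They did not share an order within sEVNORM, where replicate 2 was highest for Pecam1 but lowest for Plvap and Flt4. Pecam1 itself differed little between replicates of the vesicle groups, 1.08-fold within sEVNORM and 1.01-fold within sEVHYP.

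Over the 8 libraries, 3 of the 45 pairs among the 10 genes had an adjusted P under 0.05 for Pearson's r of log2 CPM (exact permutation test, two-sided). For Flt1 and Tek r was 0.96 (exact P = 0.000248, adjusted P = 0.0112; rho 0.95, exact P = 0.00114, adjusted P = 0.0257). For Plvap and Flt4 r was 0.93 (exact P = 0.00126, adjusted P = 0.0238; rho 0.95, exact P = 0.00114, adjusted P = 0.0257). For Tek and Emcn r was 0.92 (exact P = 0.00159, adjusted P = 0.0238), but rho was 0.83 (exact P = 0.0154, adjusted P = 0.115). Without the 2 libraries farthest from the median of the first gene, r was 0.94 for Flt1 and Tek (exact P = 0.0167), 0.82 for Plvap and Flt4 (exact P = 0.0514) and 0.78 for Tek and Emcn (exact P = 0.0778). The relations of Plvap with Flt4 and of Tek with Emcn thus rest in part on those libraries. After group means were subtracted, r was 0.97, 0.97 and 0.93 for these pairs. Pecam1, the most abundant of the endothelial identity genes, had r of -0.15 with Tek, -0.16 with Kdr and 0.16 with Cdh5.

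**Figure D3:**
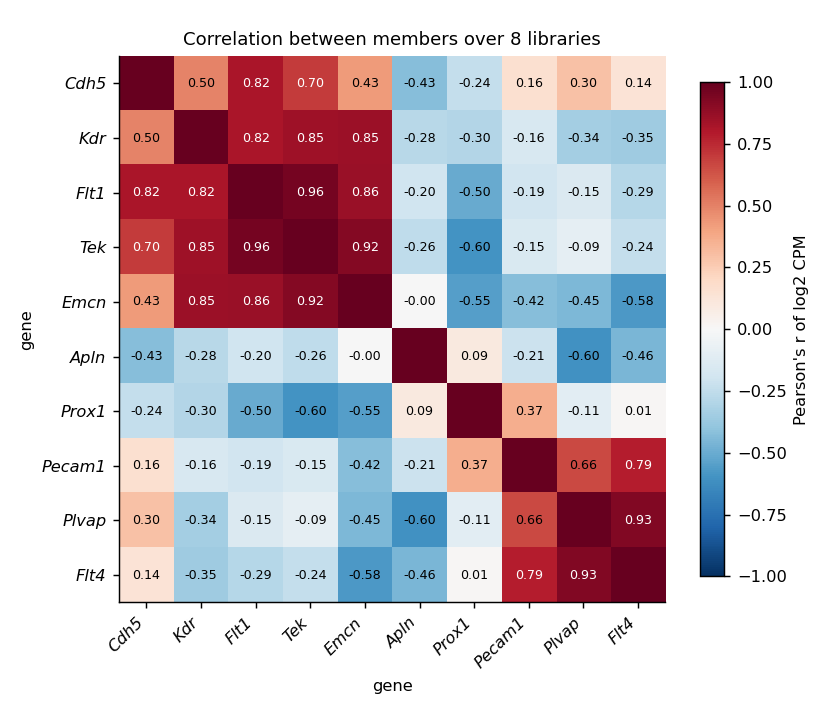
Pearson's r of log2 CPM over the 8 libraries for every pair of the 10 genes (color scale from -1 to 1). Kdr, Flt1, Tek and Emcn form a block of r from 0.82 to 0.96, and Pecam1, Plvap and Flt4 have r from 0.66 to 0.93 with one another. Without the 2 libraries farthest from the Pecam1 median, r of Pecam1 was -0.044 with Plvap and 0.46 with Flt4.

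The promoters of Kdr, Flt1, Tek and Emcn are shown because these receptors and endomucin had Pearson's r of 0.82 to 0.96 with one another between glands. No pair with Kdr passed adjustment, with adjusted P of 0.0554 to 0.106 against Flt1, Tek and Emcn (exact permutation test). ETS-family transcription factors, which drive many endothelial genes, bind a GGAA core. Each sequence is RefSeq's, on GRCm38.p6, from 250 bases before to 50 bases after the transcription start, and capitals mark GGAA or its reverse complement.
Kdr, chr5:75978406-75978705, minus strand: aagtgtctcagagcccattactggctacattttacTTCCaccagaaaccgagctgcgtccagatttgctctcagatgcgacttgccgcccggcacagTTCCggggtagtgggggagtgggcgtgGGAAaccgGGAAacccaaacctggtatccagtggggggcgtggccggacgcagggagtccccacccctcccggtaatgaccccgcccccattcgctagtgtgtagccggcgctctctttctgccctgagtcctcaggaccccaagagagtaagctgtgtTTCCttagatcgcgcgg
Flt1, chr5:147725962-147726261, minus strand: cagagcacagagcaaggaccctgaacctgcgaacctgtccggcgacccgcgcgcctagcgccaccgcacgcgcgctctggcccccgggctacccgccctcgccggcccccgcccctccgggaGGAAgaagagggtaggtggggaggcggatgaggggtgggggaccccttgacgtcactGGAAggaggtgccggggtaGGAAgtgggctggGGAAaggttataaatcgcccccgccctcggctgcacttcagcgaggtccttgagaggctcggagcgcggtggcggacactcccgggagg
Tek, chr4:94739039-94739338, plus strand: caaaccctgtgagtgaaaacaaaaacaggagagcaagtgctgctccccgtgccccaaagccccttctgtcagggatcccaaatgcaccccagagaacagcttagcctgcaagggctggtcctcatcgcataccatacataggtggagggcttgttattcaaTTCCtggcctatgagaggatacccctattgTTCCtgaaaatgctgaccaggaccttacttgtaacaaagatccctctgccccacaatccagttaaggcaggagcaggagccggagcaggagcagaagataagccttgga
Emcn, chr3:137340828-137341127, plus strand: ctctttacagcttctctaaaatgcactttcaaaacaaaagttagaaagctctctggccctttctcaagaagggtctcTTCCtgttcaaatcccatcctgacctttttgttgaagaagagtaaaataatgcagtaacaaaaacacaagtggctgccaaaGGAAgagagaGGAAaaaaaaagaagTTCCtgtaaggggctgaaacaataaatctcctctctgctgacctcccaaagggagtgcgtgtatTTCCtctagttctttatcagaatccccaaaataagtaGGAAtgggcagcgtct
The GGAA core occurs 5 times in the Kdr window, 4 in Flt1, 2 in Tek and 6 in Emcn, but 96.0% of all 32851 promoters of this length hold at least 1 copy on either strand. The longer AGGAA, which overlaps GGAA, was in 7 of the 8 promoters available for 7 of the 10 genes, with 6 copies in Emcn, and in 66.7% of all promoters. ACGTG, the core of hypoxia response elements, was in none of the 8 windows on either strand and in 19.6% of all promoters. A match or its lack describes these letters in these windows only.

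Markers of lymphocytes moved in the opposite direction to part of the endothelial genes from gland to gland. The 8 T cell markers summed to 318 to 617 CPM in sEVCTRL, 462 to 630 CPM in sEVNORM, and 555 and 321 CPM in sEVHYP, with all 8 tested and none at 0 in any library. The 8 B and plasma cell markers summed to 1171 to 3375, 1544 to 2895, and 828 to 1671 CPM in the same groups, again with none at 0. sEVCTRL replicate 2 and sEVHYP replicate 2 had the lowest T cell marker levels and the highest Emcn.

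Of 40 relations between the 10 genes and 4 marker lists, 2 had an adjusted P under 0.05 by Pearson's r (exact permutation test over 8 libraries, two-sided). These relations were added after values were seen, and the other marker lists were not examined in this way. The adjustment covers the 40 relations and not the choice of lists. Emcn and the mean log2 CPM of T cell markers had r of -0.94 (exact P = 0.000149, adjusted P = 0.00595) and rho of -0.93 (exact P = 0.00223, adjusted P = 0.0298). sEVCTRL replicate 2 and sEVHYP replicate 2 lie apart from the other 6 libraries in T cell markers, and among those 6 r was -0.90 (exact P = 0.00556). Flt1 and the B and plasma cell markers had r of -0.89 (exact P = 0.00151, adjusted P = 0.0303) and rho of -0.93 (exact P = 0.00223, adjusted P = 0.0298). Without sEVCTRL replicate 1 and sEVHYP replicate 2 that r was -0.94 (exact P = 0.00278). With group means subtracted the values were -0.97 for Emcn and -0.95 for Flt1. Each treatment alone holds too few glands for a value of its own.

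Flt1 and T cell markers had rho of -0.93 (exact P = 0.00223, adjusted P = 0.0298) and r of -0.82 (exact P = 0.0111, adjusted P = 0.111), and r was -0.58 (exact P = 0.218) among the 6 libraries. Flt4 had the opposite sign, with r of 0.73 with T cell markers (exact P = 0.0446, adjusted P = 0.131), which was 0.12 (exact P = 0.815) without the same 2 libraries and so rests on them. Tek had r of 0.76 with skeletal muscle markers (exact P = 0.0265, adjusted P = 0.117), and 0.38 without sEVNORM replicate 2 and sEVCTRL replicate 1. Emcn, Flt1 and Prox1 had r of 0.75, 0.74 and -0.81 with the muscle markers, and 0.74, 0.29 and -0.31 without those 2 libraries. With white adipocyte markers, Cdh5 had r of 0.86 (exact P = 0.00734, adjusted P = 0.0979) and Flt1 0.77 (exact P = 0.0321, adjusted P = 0.117). Without sEVNORM replicate 2 and sEVCTRL replicate 3 these were 0.66 and 0.73. All values are shares of a library, so a tissue that takes more of the reads leaves less for the others.

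**Figure D4:**
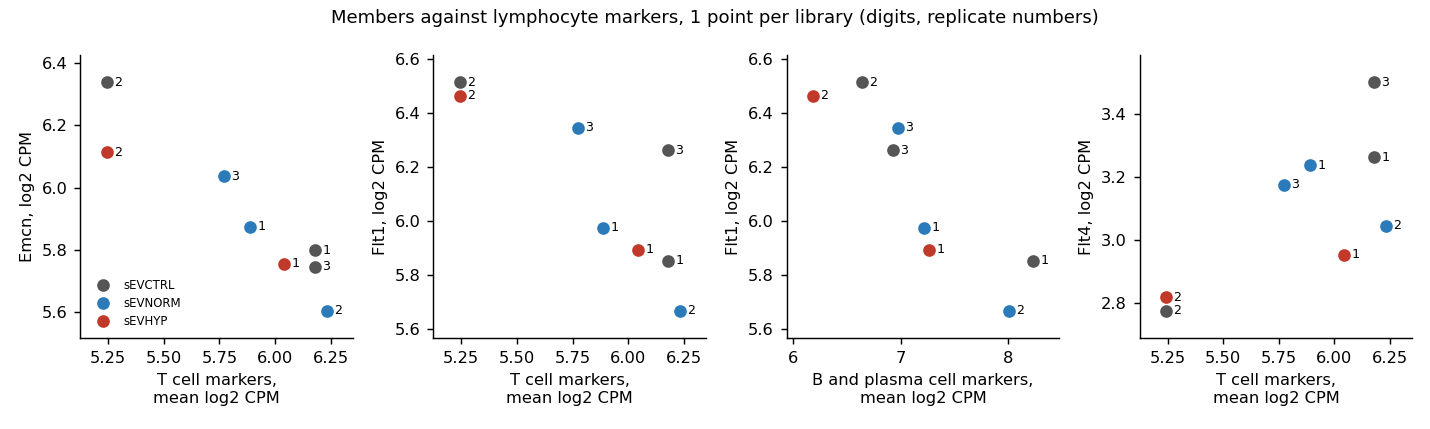
Log2 CPM of Emcn, Flt1 and Flt4 (vertical axes) against the mean log2 CPM of T cell or B and plasma cell markers (horizontal axes), 1 point per library with its replicate number, in 8 libraries. Emcn and Flt1 decline along the marker axis with r from -0.82 to -0.94, and in the Flt4 panel sEVCTRL 2 and sEVHYP 2 sit apart at the lower left.

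The genes most like the blood endothelial set over the 8 libraries were Tshz2, Dpt, Epas1, Vnn3 and Lpin1. Their log2 CPM had r of 0.98, 0.97, 0.97, 0.96 and 0.96 with the mean standardized level of Pecam1, Cdh5, Kdr, Flt1, Tek, Plvap and Emcn, and these are the 5 highest of all tested genes outside the 10. The ranking is a description without a test. Not all genes behind that mean moved together: Emcn had r of 0.92 with Tek but -0.42 with Pecam1 and -0.45 with Plvap. Epas1 encodes HIF-2α, a hypoxia-inducible factor abundant in endothelium, and Dpt encodes dermatopontin, an extracellular matrix protein of fibroblasts.

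The ligands and partners of these receptors were measured in the same libraries, and none of the 11 passed an unadjusted P of 0.05 in any of the 3 comparisons. Of all tested genes 3.95% passed in sEVHYP against sEVNORM, 2.45% in sEVHYP against sEVCTRL and 1.62% in sEVNORM against sEVCTRL. Vegfa, the main ligand of Kdr and Flt1, was at 58.8, 88.5 and 76.0 CPM in sEVCTRL, 67.1, 52.9 and 67.7 CPM in sEVNORM, and 61.7 and 113 CPM in sEVHYP. sEVHYP replicate 2 was the highest of all 8 glands for Vegfa and sEVHYP replicate 1 was within the range of the others. Vegfb was at 34.6 ± 13.9, 24.5 ± 5.32 and 27.3 ± 3.63 CPM (mean ± SD, 3, 3 and 2 glands) in sEVCTRL, sEVNORM and sEVHYP. Pgf, placental growth factor, was near 1 CPM in each group, at 1.12 ± 0.277, 1.10 ± 0.498 and 1.04 ± 0.498 CPM. The coreceptor Nrp1 was at 54.7 ± 12, 50.8 ± 9.25 and 50.2 ± 11.4 CPM in the same order.

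The lymphatic ligands differed between treatments by less than the test could resolve. Vegfc was at 18.1 ± 1.11, 16.0 ± 0.413 and 16.9 ± 1.25 CPM in sEVCTRL, sEVNORM and sEVHYP, and Vegfd at 36.6 ± 4.48, 40.1 ± 14.3 and 37.8 ± 5.55 CPM. The sEVNORM values of Vegfc all lay below the sEVCTRL values. Nrp2, their coreceptor, was at 62.5 ± 11.3, 56.7 ± 0.929 and 66.1 ± 5.20 CPM, with both sEVHYP glands above the sEVNORM glands.

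For the Tek axis, the activating ligand Angpt1 was at 37.8 ± 9.82, 38.5 ± 13.5 and 39.3 ± 11.4 CPM, and Angpt2, its context-dependent antagonist, at 6.86 ± 0.375, 7.18 ± 0.50 and 7.0 ± 2.58 CPM in sEVCTRL, sEVNORM and sEVHYP. Tie1, the partner receptor of Tek, was at 13.3, 14.1 and 18.4 CPM in sEVCTRL, 13.6, 10.2 and 11.4 CPM in sEVNORM, and 9.85 and 11.6 CPM in sEVHYP. Both sEVHYP glands were below the controls for Tie1, and its edgeR P against sEVCTRL was 0.0519, the smallest of the 11 partners in that comparison. Aplnr, the apelin receptor, was at 11.2, 20.8 and 15.0 CPM in sEVCTRL, 13.9, 12.2 and 15.6 CPM in sEVNORM, and 19.9 and 19.0 CPM in sEVHYP. Both sEVHYP glands exceeded the sEVNORM glands for Aplnr, and sEVCTRL replicate 2 exceeded both. Of the 11 partners, 2 (Aplnr and Nrp2) did not overlap between sEVHYP and sEVNORM, as was the case for 22.8% of all genes. Between sEVHYP and sEVCTRL it was 1 of 11 (Tie1), with 12.8% of all genes. Between sEVNORM and sEVCTRL it was 1 of 11 (Vegfc), with 4.86% of all genes.

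Across 13 further lists of vascular genes, 125 of 130 genes were tested. In sEVHYP against sEVNORM 4 were higher and 3 lower at an unadjusted P under 0.05, 5.6% of the 125 against 3.95% of all genes. In sEVHYP against sEVCTRL 0 were higher and 2 lower, 1.6% against 2.45% of all genes. In sEVNORM against sEVCTRL 2 were higher and 3 lower, 4.0% against 1.62% of all genes. By DESeq2 on only the groups compared, 14 of 129, 3 of 129 and 5 of 128 were called in the same 3 comparisons. These were 10.9%, 2.33% and 3.91%, where 4.54%, 1.5% and 1.14% of all genes were called. With the muscle score as a covariate 12, 5 and 5 of the 125 were called. These were 9.6%, 4.0% and 4.0%, where 4.78%, 3.31% and 2.48% of all genes were called. Without sEVCTRL replicate 2 the counts called were 11, 9 and 8, or 8.8%, 7.2% and 6.4% of the 125, where 5.57%, 8.32% and 5.75% of all genes were called. Without sEVHYP replicate 2 sEVHYP against sEVCTRL had 7 (5.6%, with 2.17% of all genes), and without sEVCTRL replicate 3 both comparisons with sEVCTRL had 1 (0.8%, with 2.76% and 1.34% of all genes). Over the 125 genes the median log2 differences were 0.0042, -0.11 and -0.095 in the fit of all 8 libraries. Of the 25 other pan-endothelial genes, 15 had a positive and 10 a negative difference in sEVHYP against sEVNORM, and 6 and 19 in sEVHYP against sEVCTRL. All 8 genes of capillaries in fat had negative differences from sEVCTRL in both vesicle groups, with medians of -0.39 for sEVHYP and -0.27 for sEVNORM. Of this list 0 of 8 passed in either comparison, where 2.45% and 1.62% of all genes did. Adipocytes also express genes of this list such as Cd36, and the white adipocyte markers had 9 of 12 negative differences (median -0.12) for sEVHYP and 11 of 12 (median -0.19) for sEVNORM. Their summed level was 8324 to 13278 CPM in sEVCTRL, 6964 to 11201 CPM in sEVNORM, and 7895 and 12374 CPM in sEVHYP, with none at 0, and their part in the capillary values was not tested. The 17 tested endothelial transcription factors had a median of -0.38 in sEVHYP against sEVNORM, with 1 of 17 called, where 3.95% of all genes were. Several of these factors, among them Ets1, Fli1 and Lmo2, are also expressed by leukocytes. In the same comparison all 8 B and plasma cell markers (median -0.65) and all 8 T cell markers (median -0.29) had negative differences, and their part in the value of the transcription factors was not tested. The list of 6 angiogenesis genes was taken from the study's own luminal cell results. Only 1 of 6, Egr1, was called, in sEVNORM against sEVCTRL, where 1.62% of all genes were. Mean Egr1 was 20.1, 39.5 and 25.1 CPM in sEVCTRL, sEVNORM and sEVHYP, so it was lower in sEVHYP than in sEVNORM. The study reports Egr1 as higher with sEVHYP, but in isolated luminal cells and not in whole glands.

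**Figure D5:**
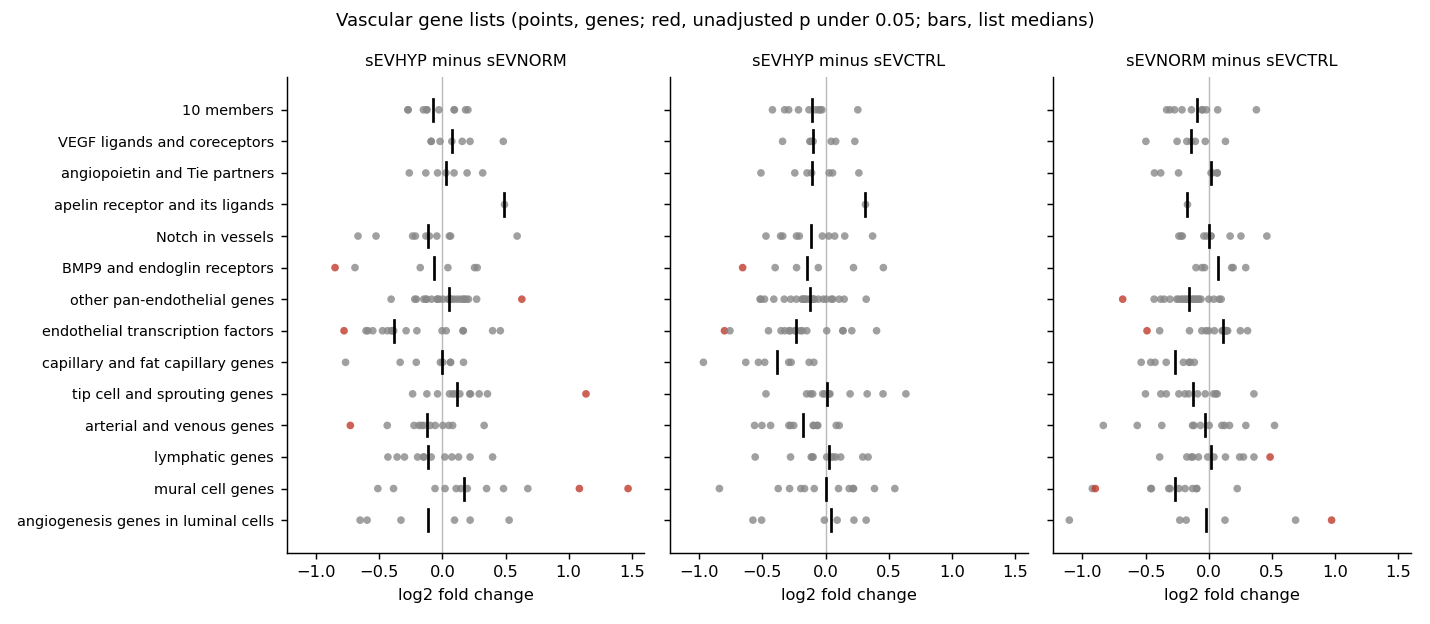
Log2 fold changes (horizontal axes) of the 10 genes and of 13 lists of vascular genes in the 3 comparisons. Points are genes, red points have an unadjusted edgeR P under 0.05, and bars are list medians, all of which lie between -0.39 and 0.49.

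Id3, a transcriptional inhibitor induced by BMP signals in endothelium, had the smallest P value of the vascular genes. Its level was 41.0, 38.6 and 48.3 CPM in sEVCTRL, 50.9, 49.9 and 45.4 CPM in sEVNORM, and 25.7 and 28.4 CPM in sEVHYP. Both sEVHYP glands were well below all 6 others. The log2 difference was -0.85 (SE 0.16, unadjusted P of 0.000556, edgeR adjusted P = 1.00) from sEVNORM and -0.66 (SE 0.16, unadjusted P of 0.00291, edgeR adjusted P = 1.00) from sEVCTRL. DESeq2 gave an adjusted P of 0.0332 from sEVNORM on all 8 libraries, and of 0.00159 on only the 5 libraries compared. From sEVCTRL the DESeq2 adjusted P values were 0.731 and 1.00, so Id3 passed adjustment in the first comparison by DESeq2 and in neither by edgeR. The 6 tested genes of its list, BMP9 and endoglin receptors, had 3 positive and 3 negative differences in sEVHYP against sEVNORM (median -0.065). On that list, Id1 was at 4.99 and 11.6 CPM in sEVHYP, 12.1 to 15.4 CPM in sEVNORM and 9.55 to 12.2 CPM in sEVCTRL. Mean Smad6 was higher in sEVHYP, at 3.57 CPM against 2.94 in sEVNORM and 2.59 in sEVCTRL.

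Other vascular genes with an unadjusted P under 0.05 had an edgeR adjusted P of 1.00. In sEVHYP against sEVNORM, Cxcr4, a chemokine receptor of tip cells and of leukocytes, had a log2 difference of 1.14 (SE 0.36), with 156 and 84.8 CPM against 35.4 to 74.3 CPM. Nos3, the endothelial nitric oxide synthase, had 0.63 (SE 0.22), with 12.7 and 16.7 CPM against 9.49 to 9.53 CPM. Vcam1, a leukocyte adhesion molecule, had -0.73 (SE 0.22), with 148 and 110 CPM against 169 to 248 CPM. Des and Ndufa4l2, on the mural cell list, had 1.47 (SE 0.60) and 1.08 (SE 0.36). Without sEVHYP replicate 2 Nos3 was at 0.41, Vcam1 at -0.53, Ndufa4l2 at 0.86 and Des at 0.97, and without sEVHYP replicate 1 Cxcr4 was at 0.63, all with an unadjusted P above 0.05. Des encodes desmin, the intermediate filament of muscle, and with the muscle score as a covariate its difference was 0.77 (unadjusted edgeR P of 0.0678). Its unadjusted P was also above 0.05 by DESeq2 on all 8 libraries (0.0554), and by edgeR without sEVCTRL replicate 3 (0.0589). With the replicate block the unadjusted edgeR P was 0.122 for Des and 0.0549 for Cxcr4.

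Sox18, a transcription factor of early vessel and lymphatic fate, had log2 differences of -0.80 (SE 0.33) from sEVCTRL and -0.78 (SE 0.33) from sEVNORM in sEVHYP, with 11 and 17.4 CPM. Replicate 2 of sEVHYP lay above the lowest control at 15.9 CPM. Without sEVHYP replicate 1 the values were -0.50 and -0.48. With the replicate block the unadjusted edgeR P of these 2 differences was 0.133 and 0.103, and with the muscle covariate 0.0524 and 0.0737. Both also lost an unadjusted P under 0.05 without sEVCTRL replicate 1, sEVNORM replicate 1 or sEVNORM replicate 3. In sEVNORM against sEVCTRL, Egr1, an immediate early factor, had 0.97 (SE 0.27), Lyve1, a lymphatic and macrophage receptor, 0.49 (SE 0.20), Erg, an ETS factor of endothelial identity, -0.49 (SE 0.21), Ushbp1 -0.68 (SE 0.30), and Ndufa4l2 -0.90 (SE 0.33). Id3 and Egr1 kept an unadjusted P under 0.05 in all 16 alternatives, whereas Lyve1, Erg, Ushbp1 and Ndufa4l2 in this comparison each lost it when at least 1 of the sEVCTRL and sEVNORM libraries was left out. None of the values in this paragraph passed adjustment in edgeR or DESeq2.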

How the data were processed

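RNA from 8 whole mammary glands was analyzed, grouped by the labelled treatment (3 control, 3 normoxia exosomes, 2 hypoxia exosomes). Per the labels and methods, poly(A) libraries were aligned by the authors with STAR to mm10 (GRCm38) and quantified with RSEM 1.2.12 on Ensembl release 89. The deposited values are whole-number counts per gene without normalization, and how RSEM estimates became whole is not given in the sources used here. Symbols and exons for 51596 of 51789 genes came from GENCODE M21 (GRCm38), and 193 genes stayed without a symbol.

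Counts were tested with edgeR 4.0.16 in R 4.3.3: a filterByExpr filter (minimum count 10), TMM normalization with factors between 0.975 and 1.02, and a two-sided quasi-likelihood F-test in one model of 3 groups (5 residual and 4.08 prior degrees of freedom, common biological coefficient of variation 0.297). Adjusted P values use Benjamini-Hochberg over 17858 genes. A call is an unadjusted P under 0.05, the threshold that the study's results text gives for genes. Intervals are 95%. Log2 CPM used a prior count of 2. The 10 genes had 66 to 6291 counts per library. The procedure was tested on simulated counts. No pair of libraries was a duplicate.

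Alternatives were DESeq2 1.42.0 on all libraries or on the groups compared (the study's own design), its size factors, edgeR on only the groups compared, 2 other filters, the replicate number as a block, a skeletal muscle score as a covariate, and each library left out. Named genes are the 10, their 11 ligands and partners, vascular list genes with an unadjusted P under 0.05 in any comparison, and the 5 most alike. The 10 genes and all lists were chosen with earlier results of these data known. Correlations among the 10 genes, and with marker lists, were added after values were seen. Promoters came from RefSeq, with 7 of the 10 genes matched. Luminal cell libraries of the study were not analysed here.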

Additional observations from a re-analysis of the deposited data

How the results depend on the processing

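Under the 16 alternatives no adjusted P of the 10 genes was under 0.569. Of 160 values per comparison (10 genes, 16 alternatives), 144, 144 and 148 kept their sign and side of the threshold for sEVHYP against sEVNORM, sEVHYP against sEVCTRL and sEVNORM against sEVCTRL, 16, 15 and 10 changed sign without passing, and 0, 1 and 2 passed an unadjusted P of 0.05. With 1 library left out at a time, the count of the 10 genes called ranged from 0 to 1 against sEVCTRL for both sEVHYP (1 without sEVCTRL replicate 2, Plvap) and sEVNORM (1 without sEVCTRL replicate 1, Cdh5, or replicate 2, Plvap). Without sEVCTRL replicate 2, 8.32% of all genes were called in sEVHYP and 5.75% in sEVNORM against sEVCTRL. Without sEVCTRL replicate 1 it was 3.2% of all genes in sEVNORM against sEVCTRL. The median log2 difference of the 10 genes, with 1 library left out, ranged from -0.16 to 0.11 for sEVHYP against sEVNORM, the highest without sEVHYP replicate 1, and from -0.28 to 0.054 for sEVHYP against sEVCTRL, the lowest without sEVHYP replicate 2. With 1 sEVHYP library left, its spread is assumed equal to that of the other groups.

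Differences near 0 changed sign with single libraries. Leaving out 1 library, sEVHYP minus sEVNORM ranged from -0.40 to 0.11 for Apln, -0.015 to 0.39 for Cdh5, -0.10 to 0.26 for Emcn, -0.14 to 0.44 for Flt1, -0.18 to 0.15 for Kdr, -0.30 to 0.15 for Prox1 and -0.25 to 0.37 for Tek. The range for sEVHYP minus sEVCTRL was -0.032 to 0.49 for Apln, -0.36 to 0.10 for Cdh5, -0.24 to 0.17 for Emcn, -0.36 to 0.23 for Flt1, -0.23 to 0.054 for Kdr, -0.16 to 0.035 for Prox1 and -0.56 to 0.063 for Tek. For sEVNORM minus sEVCTRL it was -0.24 to 0.077 for Emcn, -0.23 to 0.12 for Flt4, -0.23 to 0.066 for Kdr, -0.081 to 0.074 for Pecam1 and -0.20 to 0.25 for Prox1. With the muscle score as a covariate, Flt1 was -0.082, Tek -0.26, Emcn -0.13 and Prox1 0.17 for sEVHYP minus sEVNORM, Prox1 0.069 for sEVHYP minus sEVCTRL, and Kdr 0.024 and Prox1 -0.10 for sEVNORM minus sEVCTRL. Pecam1 stayed between -0.30 and -0.22 for sEVHYP minus sEVNORM and between -0.35 and -0.20 for sEVHYP minus sEVCTRL under all 16.

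The replicate numbers did not pair the libraries: deviations of the 7 same-numbered pairs correlated at -0.42 to 0.37, and 3 of 8 libraries matched best with their own number. With the replicate block 0 of the 10 genes were called in any comparison, 769, 401 and 252 of all genes had an unadjusted P under 0.05, and Kdr was 0.024 for sEVHYP minus sEVNORM while Cdh5 was 0.084 and Flt1 0.059 for sEVHYP minus sEVCTRL.

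The count of all genes at an unadjusted P under 0.05, 706, 438 and 290 in the report, was 1195, 387 and 303 by DESeq2 on the groups compared (83, 14 and 3 after adjustment), 1102, 672 and 533 without a filter, and 854, 591 and 442 with the muscle covariate. Without sEVCTRL replicate 2 it was 986, 1472 and 1018, without sEVCTRL replicate 1 804, 425 and 568, and without sEVHYP replicate 2 415, 407 and 271. The 0 of 11 partners called became at most 1 per setting and comparison. In the fits with such a call that kept both sEVHYP glands, 2.39% to 8.32% of all genes were called. Against sEVCTRL, Tie1 in sEVHYP was called at -0.52 with DESeq2 size factors, -0.57 with the muscle covariate and -0.61 without sEVCTRL replicate 1, Aplnr in sEVHYP at 0.57 without sEVCTRL replicate 2, Vegfa in sEVHYP at 0.61 without sEVHYP replicate 1, and Vegfb in sEVNORM at -0.69 without sEVCTRL replicate 1. In sEVHYP against sEVNORM, Aplnr was called at 0.49 by edgeR and by DESeq2 on the groups compared, and at 0.50 and 0.49 without sEVCTRL replicates 1 and 2, and Vegfa at 0.86 without sEVHYP replicate 1. No adjusted P of these was under 0.578. The causes were not tested. With 2 sEVHYP glands, the 95% intervals of sEVHYP over sEVNORM run from 0.552-fold to 1.76-fold over the 10 genes.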
